A study of Mus musculus with 10 samples.

Results

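The C/EBP proteins, PU.1 and a small group of other transcription factors that direct myeloid differentiation were followed at the RNA level in mouse bone marrow. The genes were chosen by symbol: Cebpa, Cebpb, Cebpd, Cebpe, Spi1 (which encodes PU.1), Gfi1, Runx1 and Klf4, 8 in all. Of these, 7 had a row among the 16771 genes measured, and Cebpd was not analysed here. RNA-seq libraries came from C57BL/6 bone marrow in 5 groups of 2 replicates, and no label says whether the replicates of a group are separate mice. The first group was wild-type (WT) lineage-negative stem and progenitor cells (HSPC), that is, marrow from which cells with mature lineage markers had been removed with a lineage depletion kit. The second group was Npm1c HSPC (Npm1flox-cA/+;Mx1-Cre+), in which a floxed mutant Npm1 allele is switched on by the interferon-inducible Mx1-Cre recombinase. The third was Flt3-ITD HSPC (Flt3ITD/+), with an internal tandem duplication in 1 Flt3 allele, and the fourth was double mutant (DM) HSPC (Npm1flox-cA/+;Flt3ITD/+;Mx1-Cre+). The fifth group was WT bone marrow neutrophils. Mx1-Cre is given for the Npm1c and DM groups only, so each comparison of these with WT or Flt3-ITD also sets Cre carriers against mice with no Cre in their label. The labels give no age, no induction schedule and no statement on pooling of mice.

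As background, myeloid fate depends on the balance of a few DNA-binding proteins. PU.1, an ETS-family factor, is needed for all myeloid lineages and at high levels favours macrophages and dendritic cells. C/EBPα starts the granulocyte programme, C/EBPε drives the late granule genes of maturing neutrophils, and C/EBPβ serves emergency granulopoiesis and monocytes. GFI1 is a zinc finger repressor of monocyte genes that supports granulocytes, KLF4 is a zinc finger factor of monocytes, and RUNX1, with its partner CBFβ, acts on Spi1 and on many receptor genes of progenitors.

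Values are RPKM, read counts scaled to gene length and to library size. The library totals, recovered from the steps between low values, ran from 40783015 to 57824373 reads. The deposited scale is shifted between groups: among the genes tested against WT, the median log2 change was -0.26 in Npm1c, -0.14 in Flt3-ITD, -0.34 in DM and -0.70 in neutrophils. Each library was therefore divided by a median-of-ratios size factor, from 0.719 to 1.26, before testing, and "rose" and "fell" refer to limma on that scale with adjusted p under 0.05. Levels are printed as deposited. Replicates correlated at r = 0.991 to 0.999 across genes. The Flt3-ITD pair differed most beyond read sampling, with a mean chi-square per gene of 42.9 against 2.75 to 13.4 in the other pairs. The neutrophil label matched its markers, with S100a8 at 23686 and 24133 RPKM, and its 12 late neutrophil marker genes summed to 99925 and 99650 RPKM against 57.3 to 415 in the HSPC libraries. The DM libraries stood apart from the other HSPC. Their 10 dendritic cell marker genes summed to 4941 and 4885 RPKM, against 18.4 to 34.1 in the 6 other HSPC libraries. The progenitor markers Kit, the stem cell factor receptor gene, and Cd34 were at 8.70 and 8.65 and at 3.26 and 3.37 RPKM in DM, against 14.9 and 14.5 and 15.3 and 15.7 in WT HSPC. Other genes of the same 11-gene stem and progenitor list were higher in DM, with Ly6a at 5.16 and 5.09 RPKM against 1.88 and 1.95 and Cd48 at 63.9 and 64.8 against 18.8 and 18.6, and the list summed to 85.3 and 86.3 RPKM in DM against 46.6 to 82.9 in the 6 other HSPC libraries. In bulk RNA, a different mix of cells and a different amount of RNA per cell cannot be told apart.

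**Figure D1:**
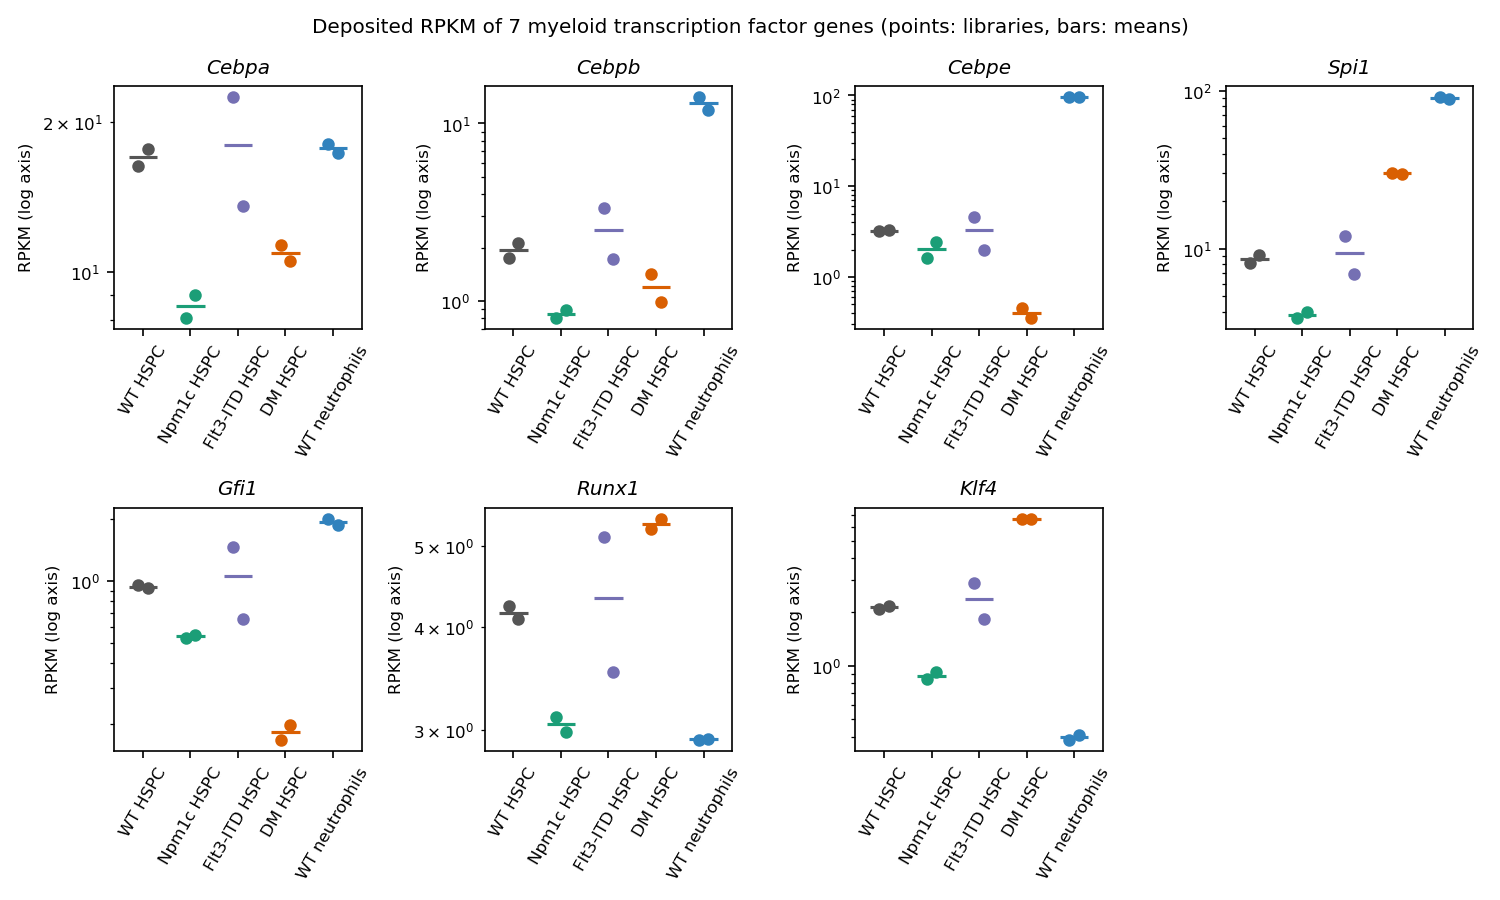
Deposited RPKM of the 7 genes in the 10 libraries, on log axes, with 1 point per library and a bar at the group mean. Spi1 and Klf4 were highest among HSPC in the DM group (30.3 and 29.9, and 6.67 and 6.67 RPKM), where Cebpe and Gfi1 were lowest.

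Among the HSPC groups, Cebpa and Cebpb shared their order, and Cebpe had another. Cebpa (chromosome 7, 35119293 to 35121928, mm10/GRCm38, GENCODE M21) measured 16.3 and 17.7 RPKM in the WT HSPC libraries, 8.07 and 8.97 in the Npm1c pair, 22.4 and 13.5 in the Flt3-ITD pair, 11.3 and 10.5 in the DM pair and 18.1 and 17.3 in neutrophils. Both Npm1c libraries lay below every other library, the DM libraries came next, and the WT, neutrophil and Flt3-ITD groups overlapped. Cebpb (chromosome 2, 167688915 to 167690418) measured 1.74 and 2.13 RPKM in the WT HSPC libraries, 0.802 and 0.891 in the Npm1c pair, 3.33 and 1.72 in the Flt3-ITD pair, 1.42 and 0.989 in the DM pair and 14.1 and 11.9 in neutrophils. The neutrophil libraries stood clear of all HSPC, and the order among HSPC was that of Cebpa, with WT and Flt3-ITD overlapping. Cebpe (chromosome 14, 54710360 to 54712174) measured 3.19 and 3.29 RPKM in the WT HSPC libraries, 1.64 and 2.44 in the Npm1c pair, 4.54 and 1.98 in the Flt3-ITD pair, 0.455 and 0.351 in the DM pair and 96.1 and 95.1 in neutrophils. Its DM values, which rest on 25 and 21 reads, were below all others, and its neutrophil values were far above all others. Genes on the opposite strand cover 908 of the 1504 exonic bases of Cebpb (Tmem189) and 313 of the 2636 of Cebpa, as well as 327 exonic bases of Gfi1 and 162 of Runx1, so reads cannot be assigned with certainty where counting did not use strand.

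Spi1 (chromosome 2, 91082390 to 91115756) measured 8.17 and 9.12 RPKM in the WT HSPC libraries, 3.64 and 4.02 in the Npm1c pair, 12.001 and 6.93 in the Flt3-ITD pair, 30.3 and 29.9 in the DM pair and 90.9 and 88.3 in neutrophils. The order was Npm1c, then WT and Flt3-ITD with overlap, then DM, then neutrophils, and the DM and neutrophil pairs did not overlap with any other group.

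Gfi1 (chromosome 5, 107716657 to 107726036) measured 0.957 and 0.921 RPKM in the WT HSPC libraries, 0.528 and 0.548 in the Npm1c pair, 1.47 and 0.652 in the Flt3-ITD pair, 0.168 and 0.199 in the DM pair and 2.02 and 1.87 in neutrophils. It ordered the groups as Cebpe did, from DM at the bottom to neutrophils at the top, with WT and Flt3-ITD overlapping. The gene length that fits the deposited Gfi1 values is 10289 bases, longer than the gene's span of 9380 bases in GENCODE M21 and 3.23 times the 3187 bases its exons cover. The same quotient was 1.64 for Runx1, 1.44 for Klf4 and 1.33 for Spi1, and near 1 (0.996 to 0.999) for the C/EBP genes. A fixed length leaves comparisons between libraries as they are, but levels of different genes are compared below only after each was recomputed on its exon length.

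Runx1 (chromosome 16, 92601466 to 92826149) measured 4.24 and 4.08 RPKM in the WT HSPC libraries, 3.11 and 2.99 in the Npm1c pair, 5.13 and 3.53 in the Flt3-ITD pair, 5.25 and 5.40 in the DM pair and 2.92 and 2.93 in neutrophils. Its highest library was 1.85 times its lowest, the smallest such quotient of the 7 genes. Klf4 (chromosome 4, 55527143 to 55532466) measured 2.08 and 2.16 RPKM in the WT HSPC libraries, 0.843 and 0.917 in the Npm1c pair, 2.91 and 1.83 in the Flt3-ITD pair, 6.67 and 6.67 in the DM pair and 0.384 and 0.407 in neutrophils. Runx1 and Klf4 shared their group order, lowest in neutrophils, then Npm1c, then WT and Flt3-ITD with overlap, then DM. Spi1 had the same order among the HSPC groups, but its neutrophil libraries were the highest. These orders are of deposited levels. After size-factor scaling, Runx1 in neutrophils, at 4.06 and 4.05, lay above Npm1c (3.10 and 2.89) and WT HSPC (3.37 and 3.28), Cebpa in neutrophils, at 25.1 and 23.9, lay above every HSPC library, and Cebpb in DM overlapped with WT.

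The windows before the starts of Klf4, Runx1 and Gfi1 are shown because Klf4 and Runx1 rose with Spi1 in DM while Gfi1 was lowest there. They are the 250 bases upstream of each start on the gene's own strand, 5′ to 3′, from RefSeq on GRCm38.p6, in which 5 of the 8 genes were found. Capitals mark matches, on either strand, to simple motifs: TTGCNNAA (C/EBP), GAGGAA (PU.1), TGTGGT (RUNX), GGGNGGGGC (KLF) and AAATC (GFI1). Klf4 has 1 start at chr4:55532476-55532725, Gfi1 is shown at chr5:107725806-107726055, and Runx1 has a distal window at chr16:92826075-92826324 and a proximal one at chr16:92697330-92697579, all on the minus strand. A second Gfi1 window, at chr5:107724344-107724593, held no match to any of these motifs and is not shown.
Klf4: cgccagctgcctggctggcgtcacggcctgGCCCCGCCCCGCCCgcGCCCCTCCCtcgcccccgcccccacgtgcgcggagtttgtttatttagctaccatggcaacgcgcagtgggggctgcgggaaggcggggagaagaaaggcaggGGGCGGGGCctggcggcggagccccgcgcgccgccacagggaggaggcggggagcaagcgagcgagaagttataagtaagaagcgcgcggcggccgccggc
Gfi1: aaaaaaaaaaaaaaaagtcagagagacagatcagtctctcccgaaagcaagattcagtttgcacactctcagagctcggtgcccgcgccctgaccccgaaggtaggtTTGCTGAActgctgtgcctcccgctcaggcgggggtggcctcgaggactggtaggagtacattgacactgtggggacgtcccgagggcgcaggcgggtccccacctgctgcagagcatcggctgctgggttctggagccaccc
Runx1 distal: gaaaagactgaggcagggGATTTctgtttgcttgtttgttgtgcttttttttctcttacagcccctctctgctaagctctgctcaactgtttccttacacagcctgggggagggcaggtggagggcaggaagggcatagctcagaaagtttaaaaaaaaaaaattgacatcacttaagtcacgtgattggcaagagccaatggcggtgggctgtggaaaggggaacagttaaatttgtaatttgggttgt
Runx1 proximal: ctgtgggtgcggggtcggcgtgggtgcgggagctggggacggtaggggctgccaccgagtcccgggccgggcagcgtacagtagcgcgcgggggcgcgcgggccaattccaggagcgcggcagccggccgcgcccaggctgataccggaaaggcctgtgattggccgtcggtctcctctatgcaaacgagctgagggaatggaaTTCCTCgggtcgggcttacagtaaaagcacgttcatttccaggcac
The Klf4 window held 4 KLF matches, the first pair overlapping each other. The Gfi1 window held a C/EBP match at 143 to 136 bases before the start, the proximal Runx1 window a PU.1 match at 46 to 41, and the distal Runx1 window a GFI1 match at 232 to 228. Among all 32851 windows of that length, 15.52% held a KLF match, 9.56% a C/EBP match, 23.25% a PU.1 match, 32.69% a GFI1 match and 14.05% a RUNX match. A match describes the letters only.

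In Npm1c HSPC, the question was what the mutant nucleophosmin alone did to these factors. Of the 6 members tested, 3 fell, Cebpa, Spi1 and Klf4, and none rose, where 20.2% of the 9702 genes tested fell and 18.2% rose. Lower calls made up 52.6% of all calls, 95.9% on the deposited scale and 76.1% with each library scaled to the sum of its listed genes. On the deposited scale 5 members fell, where 58.1% of all genes tested fell. Spi1 changed by -0.80 ± 0.18 (log2, SE, n = 2 per group, limma adjusted p = 0.0139), Klf4 by -0.69 ± 0.12 (adjusted p = 0.00758) and Cebpa by -0.67 ± 0.16 (adjusted p = 0.01996). Cebpb had a value of -0.62 ± 0.22 (adjusted p = 0.0603), Cebpe of -0.33 ± 0.27 (adjusted p = 0.371) and Runx1 of -0.13 ± 0.11 (adjusted p = 0.355). Gfi1 did not reach 1 RPKM in 2 HSPC libraries and so was not tested in the HSPC fits. With no filter its log2 change was -0.28 ± 0.20 (adjusted p = 0.366). The 3 calls rest on few libraries. Where a library is left out, its group keeps 1 library, which is assumed to vary like the other groups. Leaving out WT HSPC replicate 1 left Klf4 alone below the threshold (Spi1 adjusted p = 0.0559, Cebpa 0.0734), and leaving out WT replicate 2 left no call (Klf4 0.0573, Spi1 0.0904, Cebpa 0.114). Without Npm1c replicate 1 the adjusted p was 0.0653 for Spi1 and 0.0880 for Cebpa, and without replicate 2 it was 0.0540 and 0.0658.

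Around these factors, the lists of known target genes did not all move one way in Npm1c. Of 18 tested genes of the PU.1 target list, 10 fell and 1 rose, with a list median of -0.44 against -0.01 over all genes, and Mpeg1, a pore-forming protein of phagocytes, changed by -0.85 ± 0.10 (limma adjusted p = 0.00243). Of 6 tested receptor genes for colony-stimulating factors and related cytokines, 4 fell, led by Csf1r, the macrophage growth factor receptor (-0.94 ± 0.13, adjusted p = 0.00331). Of 11 tested genes in the primary granule list, known targets of C/EBPα, 2 fell (Igsf6 and Hp) and 9 did not pass. The list median was -0.65. Among the 9 were Mpo, Elane, Prtn3 and Ctsg (limma adjusted p = 0.0818, 0.318, 0.0753 and 0.1045). Of the secondary granule genes, known targets of C/EBPε, 5 of 13 rose and none fell (list median 1.40). The same count was found in Flt3-ITD against WT (list median 1.61). Ngp, a neutrophil granule protein gene, was at 23.8 and 106 RPKM in the Npm1c pair and at 13.5 and 11.1 in the WT HSPC libraries (2.27 ± 0.57, adjusted p = 0.0208). Its change was 1.23 without Npm1c replicate 2 and 3.32 without replicate 1, and the call was lost without WT replicate 1 or 2 (adjusted p = 0.0847 and 0.111). Irf8, the PU.1 partner of monocytes and dendritic cells, fell by 0.89 ± 0.10 (adjusted p = 0.00182). Among 9 tested relatives and regulators of C/EBP, 1 rose and 2 fell: Trib2, which directs C/EBPα to degradation, rose by 0.88 ± 0.04 (adjusted p = 2.20e-04), and the partner gene Cebpg changed by -0.31 ± 0.04 (adjusted p = 0.00312). In the KLF family 2 of 12 rose, 2 fell and 8 did not pass, with Klf2, a factor of lymphocyte quiescence, at 0.58 ± 0.07 (adjusted p = 0.00281). The monocyte marker list moved with these genes, with 7 of 9 tested genes lower and sums of 67.4 and 64.3 RPKM against 133 in both WT libraries. No monocyte marker was at 0 in either group, and the part of a changed cell mix in these values was not tested.

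In Flt3-ITD HSPC, none of the 6 tested members passed in limma, where 8.76% of genes rose and 9.47% fell, and at an unadjusted p under 0.05 the count was also 0. Those shares depend on single libraries: without WT replicate 1, 0.385% of genes rose, and without Flt3-ITD replicate 2, 18.1%. The values were 0.21 ± 0.16 for Cebpa, 0.40 ± 0.22 for Cebpb, 0.07 ± 0.27 for Cebpe, 0.25 ± 0.18 for Spi1, 0.19 ± 0.11 for Runx1 and 0.24 ± 0.12 for Klf4 (limma adjusted p = 0.392, 0.236, 0.879, 0.357, 0.248 and 0.204). Gfi1 stood at 0.17 ± 0.20 with no filter (adjusted p = 0.677). The 2 Flt3-ITD libraries differed in all 7 genes: replicate 1 was above replicate 2 by 1.45-fold for Runx1 to 2.29-fold for Cebpe, while the same quotient ran from 0.671 to 1.44 over the other 4 groups. With Flt3-ITD replicate 1 as the only library of its group, and the spread taken from the other groups, Cebpa, Cebpb, Spi1, Runx1 and Klf4 were above WT (log2 change 0.50, 0.73, 0.55, 0.37 and 0.46, with adjusted p = 0.00471, 0.0161, 0.00336, 0.00484 and 0.00210). Without replicate 1, Cebpa, Cebpe and Spi1 turned to -0.07, -0.37 and -0.06. Granule and progenitor genes differed between these libraries in the same direction. The 12 genes of the primary granule list summed to 2007 and 872 RPKM. The 10 mast cell, basophil and eosinophil markers summed to 556 and 242, while the 12 late neutrophil markers were at 301 and 261. Lower calls made up 52% of all calls, 94.4% on the deposited scale and 83.9% scaled to the listed genes. Of the secondary granule genes 5 of 13 rose and none fell, with Ngp at 2.68 ± 0.57 (limma adjusted p = 0.0242). Of the PU.1 targets 5 of 18 rose and none fell. Among 16 PU.1 partners and ETS genes 3 rose and 3 fell, with Irf8 at 0.47 ± 0.10 and Irf4 at -0.64 ± 0.12 (adjusted p = 0.0228 and 0.0168).

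**Figure D2:**
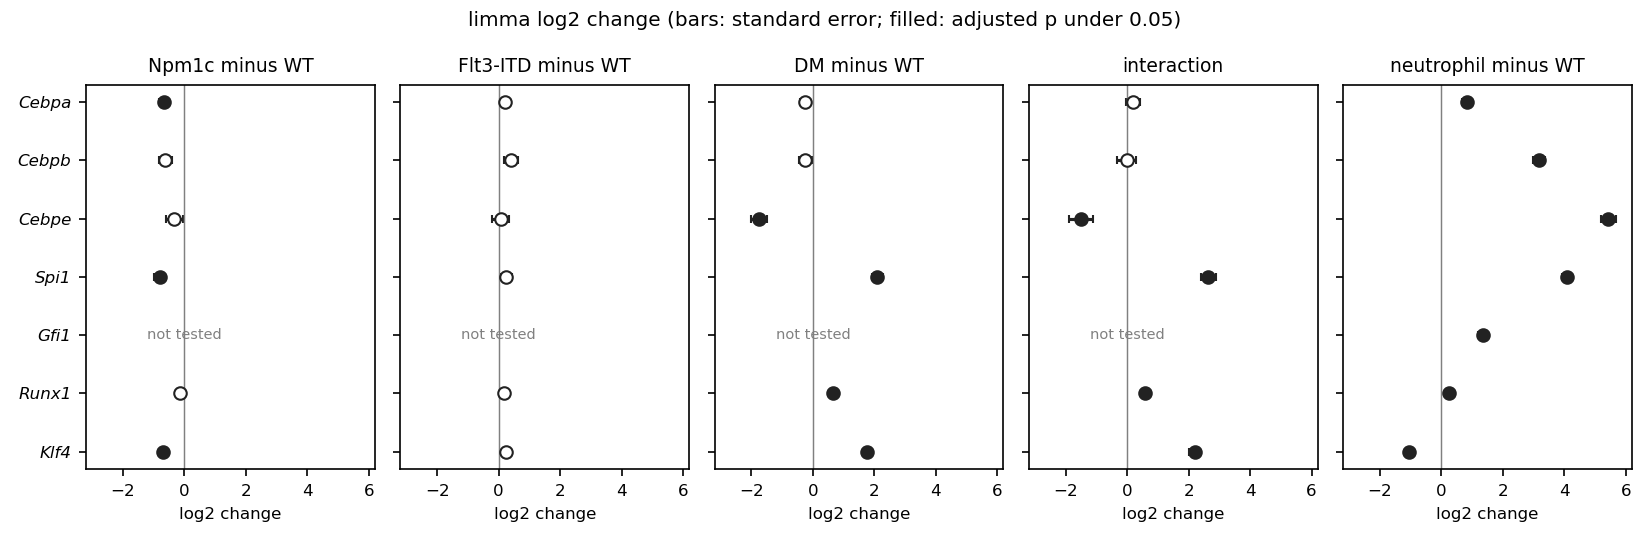
Log2 change of each member in 5 comparisons, after size-factor scaling, with bars for the standard error of the limma fit (filled points have adjusted p under 0.05). Spi1 and Klf4 lie to the left of 0 in Npm1c and far to the right in DM (2.09 and 1.75), with Cebpe at -1.76.

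With both mutations the factors moved apart. In DM HSPC against WT, Spi1, Klf4 and Runx1 rose and Cebpe fell, so that 3 of 6 tested members rose and 1 fell, where 38.0% of genes rose and 39.3% fell. Lower calls made up 50.9% of all calls, 71.2% on the deposited scale, 61.5% scaled to the listed genes and 64.3% after quantile normalization. Spi1 rose by 2.09 ± 0.18 (4.26-fold, limma adjusted p = 3.28e-05) and Klf4 by 1.75 ± 0.12 (3.36-fold, adjusted p = 1.38e-05). Runx1 rose by 0.65 ± 0.11 (adjusted p = 0.00106), a call that was lost on the deposited scale (0.32, adjusted p = 0.0650). Cebpe fell by 1.76 ± 0.27 (adjusted p = 7.66e-04). Its mean deposited RPKM was 8.04-fold lower, without the pseudocount of 0.5 or size factors, on a scale that is shifted down in DM. After size-factor scaling, with no pseudocount, Cebpe was at 2.54 and 2.64 in WT and at 0.468 and 0.363 in DM. Cebpa had a value of -0.26 ± 0.16 (adjusted p = 0.190) and fell on the deposited scale (-0.61, adjusted p = 0.0248). Cebpb had a value of -0.24 ± 0.22 (adjusted p = 0.339). Gfi1, tested only with no filter, fell by 0.86 ± 0.20 (adjusted p = 0.0106). Its mean deposited RPKM was 5.12-fold lower, from 545 and 548 reads in WT to 77 and 99 in DM. After size-factor scaling Gfi1 was at 0.7615 and 0.7404 in WT and at 0.1732 and 0.2053 in DM.

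The partner genes were tested in the same comparison, where 38.0% of all genes rose and 39.3% fell, in lists drawn up from textbook roles. Among the C/EBP relatives and regulators, 5 of 9 rose and 2 fell, and the Tribbles genes split: Trib1 rose by 3.40 ± 0.07 (limma adjusted p = 3.60e-08) while Trib2 changed by -1.49 ± 0.04 (adjusted p = 1.66e-07). Batf3, the factor of type 1 dendritic cells, rose by 3.78 ± 0.05. In the list of PU.1 partners and ETS genes, 10 of 16 rose and 5 fell, with Irf8 at 89.0 and 89.0 RPKM against 12.7 and 12.8 in WT (3.11 ± 0.10). In the GFI1 circuit, 4 of 10 rose and 5 fell. Egr1, an early growth response gene that GFI1 represses in monocyte development, rose by 3.71 ± 0.09, whereas the close relative Gfi1b and the corepressor gene Rcor1 changed by -2.03 ± 0.10 and -1.08 ± 0.04. Among RUNX1 partners 3 of 10 rose and 7 fell, with Cbfa2t3 at 2.06 ± 0.07 and Myb, a factor of cycling progenitors, at -2.09 ± 0.06. In the KLF family 5 of 12 rose and 4 fell, and Klf2 (5.20 ± 0.07) and Klf6 (3.62 ± 0.05) had the smallest adjusted p.

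The lists of known target genes moved in different directions. Of 18 tested PU.1 targets, 17 rose and 1 fell, with a list median of 2.11 against -0.02 over all genes. Mpeg1 rose by 5.08 ± 0.10 and the high-affinity Fc receptor gene Fcgr1 by 2.19 ± 0.07 (limma adjusted p = 3.42e-08 and 2.72e-07). Of the receptor genes 4 of 6 rose and 1 fell, with Flt3 at 3.29 ± 0.09 and Csf2ra, a subunit of the GM-CSF receptor, at 2.88 ± 0.16. Of the genes in the primary granule list, 9 of 11 fell, 1 rose (Lyz2, at 1.54 ± 0.30) and 1 did not pass, with a list median of -1.43. Mpo, the myeloperoxidase gene, went from 285 and 297 RPKM to 17.6 and 19.7 (-3.56 ± 0.25), and Elane, neutrophil elastase, from 384 and 399 to 31.4 and 30.1 (-3.28 ± 0.36). Of the secondary granule genes, the known targets of C/EBPε, 1 of 13 rose, 1 fell and 11 did not pass. The one that rose, Cybb, encodes a subunit of the phagocyte oxidase (2.03 ± 0.19). Some genes stand in more than 1 of these lists. Some also reached 1 RPKM in 2 HSPC libraries only through DM, which fixes their direction, including Trib1, Batf3, Egr1, Spib, Klf7, Klf8 and Nr4a1 among the factors and Fcgr1, Tlr4, Cd14 and Adgre1 among the PU.1 targets. Without such genes, 13 of 14 PU.1 targets, 3 of 7 C/EBP relatives and 9 of 15 PU.1 partners rose. So did 3 of 9 genes of the GFI1 circuit and 3 of 10 of the KLF family, beside 38.0% of all genes. That share still counts all genes that passed only through DM, so it is no matched background for these reduced lists. All 6 tested members passed the filter without the DM libraries.

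Dendritic markers, and part of the monocyte markers, moved with Spi1 and Klf4 in DM. Of 10 dendritic markers, 9 were tested and rose, among them Xcr1, which passed the filter only through DM. The tenth, Siglech, was under 1 RPKM in every library. Cd74, the MHC class II invariant chain, was at 1648 and 1645 RPKM against 11.9 and 11.6 in WT, Xcr1, the chemokine receptor of type 1 dendritic cells, at 109 and 106 against 0.272 and 0.206, and H2-Ab1 at 1680 and 1650 against 6.44 and 6.00. None of the 10 was at 0 in DM. The transcription factor genes Id2 (6.27 ± 0.12), Irf5 (4.59 ± 0.09) and Nr4a1 (4.06 ± 0.05) rose in a list of monocyte and dendritic factors in which 6 of 9 rose and 3 fell (limma adjusted p = 2.74e-08, 2.47e-08 and 4.59e-09). Monocyte markers summed to 681 and 677 RPKM in DM against 64.3 to 205 in the 6 other HSPC libraries. Mpeg1 alone gave 580 and 578 RPKM of the DM sums, against 22.5 and 20.65 in the WT libraries. Of 9 tested genes, 6 were higher, 1 was lower, and Csf1r and Ly6c2 did not pass. The lower gene, F13a1, was at 5.31 and 5.56 RPKM against 40.6 and 40.5 in WT. Adgre1 and Cd14 passed the filter only through DM. Without them 4 of 7 genes rose and 1 fell, beside 38.0% and 39.3% of all genes tested, such genes included. Mast cell, basophil and eosinophil markers, which moved with Cebpe and Gfi1, summed to 9.91 and 13.9 RPKM against 242 to 608, with all 8 tested genes lower. Tpsb2 was at 0 in both DM libraries, but at no more than 0.0517 RPKM in any library. The part of cell composition in the changes of the transcription factors was not tested.

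**Figure D3:**
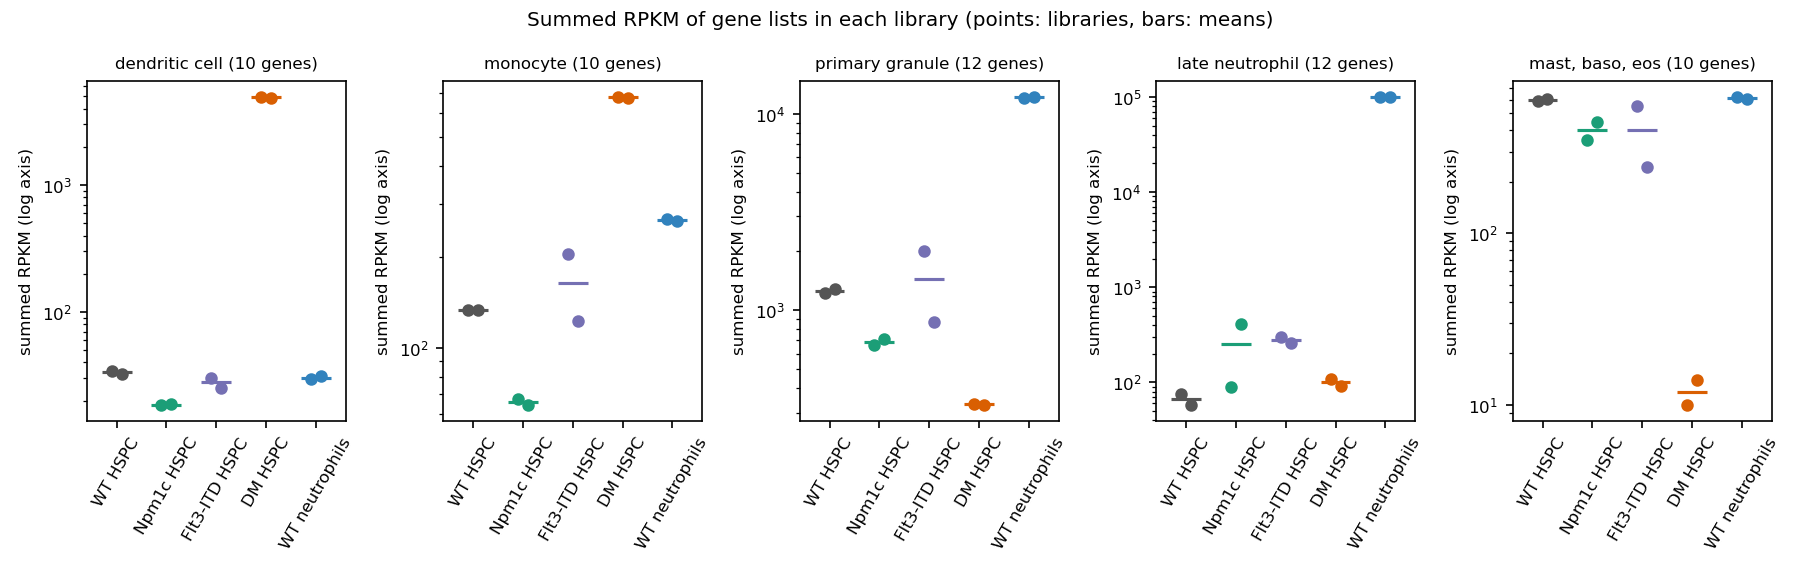
Summed RPKM of 5 gene lists in the 10 libraries, on log axes, with 1 point per library and a bar at the group mean. Dendritic markers were at 4941 and 4885 RPKM in DM and at 18.4 to 34.1 in the other HSPC, and the primary granule list was lowest in DM (333 and 326).

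Set against each single mutant, the DM values kept this direction for Spi1, Klf4, Runx1 and Cebpe. Against Npm1c, 3 of 6 tested members rose and 1 fell, where 39.4% of genes rose and 40.9% fell. Lower calls made up 50.9% of all calls and 64.5% after quantile normalization. Spi1 rose by 2.89 ± 0.18, Klf4 by 2.44 ± 0.12 and Runx1 by 0.78 ± 0.11, and Cebpe fell by 1.43 ± 0.27 (limma adjusted p = 5.84e-06, 2.46e-06, 3.74e-04 and 0.00205). Cebpa stood at 0.41 ± 0.16 and Cebpb at 0.38 ± 0.22 (adjusted p = 0.0522 and 0.145), and Gfi1 with no filter at -0.58 ± 0.20 (adjusted p = 0.0445). Against Flt3-ITD, 3 rose and 3 fell, where 38.4% of genes rose and 39.5% fell. Spi1 rose by 1.85 ± 0.18, Klf4 by 1.51 ± 0.12 and Runx1 by 0.46 ± 0.11 (adjusted p = 6.34e-05, 3.03e-05 and 0.00597). Runx1 lost the call on the deposited scale (0.29, adjusted p = 0.0941). Lower calls made up 50.7% of all calls, 63% on the deposited scale and 63.9% after quantile normalization. Cebpe fell by 1.83 ± 0.27, Cebpb by 0.64 ± 0.22 and Cebpa by 0.47 ± 0.16 (adjusted p = 6.30e-04, 0.0298 and 0.0328), and Gfi1 with no filter by 1.03 ± 0.20 (adjusted p = 0.00515). The falls of Cebpa and Cebpb depended on single libraries. Without Flt3-ITD replicate 1 they were -0.19 and -0.31 (adjusted p = 0.0522 and 0.109), and without DM replicate 2 -0.42 and -0.45 (adjusted p = 0.127 and 0.162). Without DM replicate 1 Cebpa had adjusted p = 0.0743. These comparisons share the DM libraries with each other and with the comparison to WT.

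The interaction asks whether DM differs from the sum of both single-mutant changes, and it is DM minus Npm1c minus Flt3-ITD plus WT. It was above 0 for Spi1 (2.64 ± 0.25, limma adjusted p = 8.18e-05), Klf4 (2.19 ± 0.18, adjusted p = 3.77e-05) and Runx1 (0.59 ± 0.15, adjusted p = 0.0101) and below 0 for Cebpe (-1.504 ± 0.39, adjusted p = 0.00998). Of all genes 37.2% were called above 0 and 35.7% below. Calls below 0 made up 49% of all calls and 62.7% after quantile normalization. Cebpa stood at 0.20 ± 0.23 (adjusted p = 0.470), and at 0.48 without Flt3-ITD replicate 1 (adjusted p = 0.00327). Cebpb stood at -0.02 ± 0.31 (adjusted p = 0.962), a sign that changed with the scaling, and Gfi1 with no filter at -0.75 ± 0.28 (adjusted p = 0.0673). Among partners and targets, Irf8 gave 3.54 ± 0.14, Id2 6.07 ± 0.17, Mpeg1 5.47 ± 0.15 and Mpo -3.22 ± 0.36 (adjusted p = 1.21e-06, 3.25e-07, 2.53e-07 and 1.81e-04).

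WT neutrophils against WT HSPC compare 2 cell preparations of the same genotype. The neutrophil libraries also held mast cell, basophil and eosinophil markers, which summed to 625 and 611 RPKM against 593 and 608 in WT HSPC. The part of such other cells in the values below was not tested. Of the 7 members tested, 6 were higher and 1 lower in limma, where 43.4% of 10174 genes rose and 47.6% fell. Lower calls made up 52.3% of all calls, 68.8% on the deposited scale and 75.6% scaled to the listed genes. Cebpe rose by 5.43 ± 0.25, Spi1 by 4.08 ± 0.16, Cebpb by 3.18 ± 0.21 and Gfi1 by 1.35 ± 0.17 (limma adjusted p = 7.48e-08, 2.95e-08, 7.93e-07 and 6.97e-05). Klf4 fell by 1.06 ± 0.12 (adjusted p = 2.43e-05). Cebpa and Runx1 depended on the scaling. Cebpa was at 0.83 ± 0.15 (adjusted p = 8.36e-04), at 0.06 on the deposited scale (adjusted p = 0.771) and at -0.36 when scaled to the listed genes (adjusted p = 0.0599). Runx1 was at 0.25 ± 0.10 (adjusted p = 0.0389), at -0.44 on the deposited scale (adjusted p = 0.0104) and at -0.80 scaled to the listed genes (adjusted p = 9.20e-05), and leaving out any 1 of the 4 libraries compared ended its call (adjusted p from 0.0907 to 0.131). Gfi1 passed the filter only through the neutrophil libraries, which fixes its direction, and the other 6 members gave 5 higher and 1 lower. Of the 16 secondary granule genes, 13 passed the filter in HSPC and all 13 rose, while Itgb2l, Ceacam10 and Olfm4 passed only through the neutrophils. Of the PU.1 targets, 17 of the 18 that passed in HSPC rose, and the integrin gene Itgam, which passed only through the neutrophils, had a value of 7.19 ± 0.11. Of the 12 genes in the primary granule list, 5 rose, 4 fell and 3 did not pass, and Fcnb passed the filter only through the neutrophils. Deposited levels were above WT HSPC for Lyz2 (10107 and 10199 RPKM against 79.5 and 80.1), Hp, Igsf6, Serpinb1a and Fcnb. They were below WT HSPC for Mpo (51.9 and 51.9 against 285 and 297), Elane, Prtn3, Ctsg and the rest of the list. Csf3r, the G-CSF receptor gene and a C/EBP target, rose by 6.24 ± 0.24. Trib1 rose by 4.86 ± 0.07 and Trib2 changed by -3.00 ± 0.07, in the directions they had in DM. In the KLF family 8 of 12 rose, with Klf2 at 5.85 ± 0.07 and Klf6 at 4.71 ± 0.05, and Gfi1b, Myb and Hdac2, a deacetylase that GFI1 recruits, changed by -2.35 ± 0.09, -2.28 ± 0.06 and -1.74 ± 0.04.

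On exon length, the level of Spi1 relative to Cebpa set the DM libraries and neutrophils apart from the rest. The quotient of their RPKM was 0.667 and 0.686 in the WT HSPC libraries, 0.600 and 0.595 in the Npm1c pair, 0.712 and 0.680 in the Flt3-ITD pair, 3.56 and 3.77 in the DM pair and 6.69 and 6.78 in neutrophils. Library scaling cancels out of such a quotient. That of Cebpe to Cebpa was 0.195 and 0.186 in the WT HSPC libraries, 0.202 and 0.271 in the Npm1c pair, 0.202 and 0.146 in the Flt3-ITD pair, 0.0400 and 0.0332 in the DM pair and 5.30 and 5.48 in neutrophils, so the DM and neutrophil libraries lay at opposite ends. Klf4 to Gfi1 was 0.970 and 1.05 in the WT HSPC libraries, 0.713 and 0.749 in the Npm1c pair, 0.886 and 1.25 in the Flt3-ITD pair, 17.7 and 15.0 in the DM pair and 0.0851 and 0.0971 in neutrophils.

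**Figure D4:**
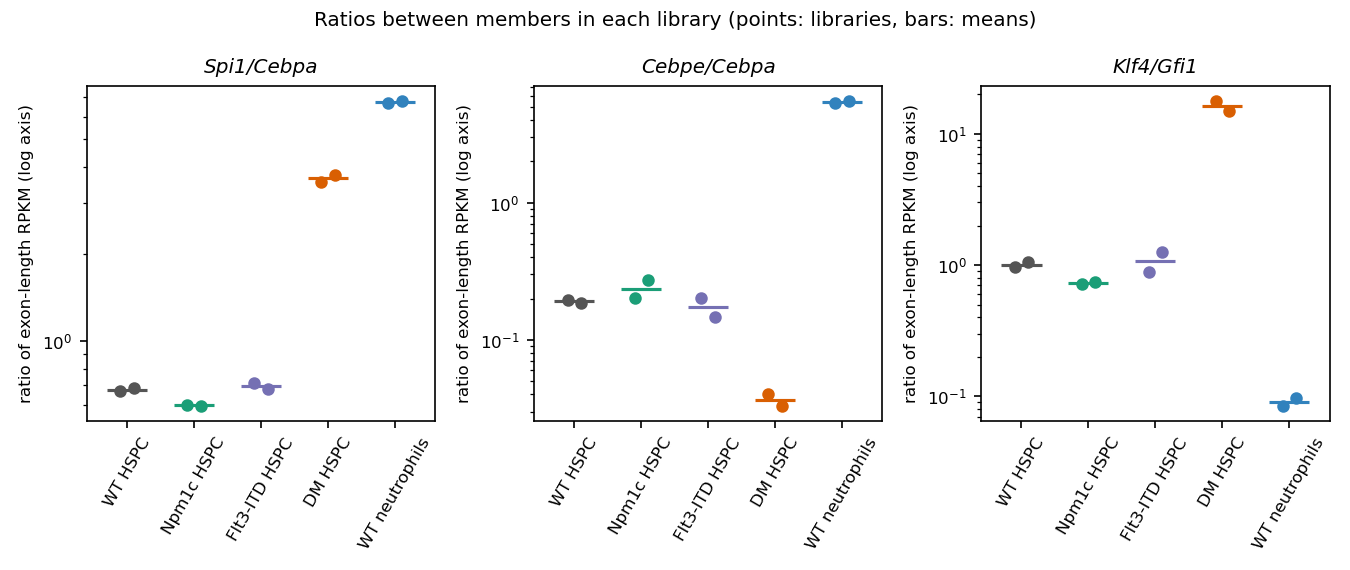
Quotients of exon-length RPKM in each library, on log axes, with 1 point per library and a bar at the group mean. Spi1 to Cebpa was 3.56 and 3.77 in DM and 0.595 to 0.712 in the other HSPC, and Cebpe to Cebpa was 5.30 and 5.48 in neutrophils.

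The members fell into groups by their pattern over the 8 HSPC libraries, which is a description over 4 groups that share their libraries. Spi1, Klf4 and Runx1 ran together (Pearson r = 0.999 for Spi1 and Klf4, 0.971 for Runx1 with either), as did Cebpe and Gfi1 (r = 0.958) and Cebpa and Cebpb (r = 0.975). Cebpe and Spi1 had r = -0.741. Among the 3 genes most like each member over those libraries, Spi1 had Coro1a, an actin-binding coronin of leukocytes (r = 0.999), Klf4 and Nfam1, and Cebpe had Impdh1, Pomgnt2 and Hdc, the histidine decarboxylase gene (r = 0.9936, 0.9916 and 0.9915). Over all 10 libraries, the likeness of Spi1 to Coro1a held at r = 0.9998, while that of Spi1 to Klf4 was r = -0.03. Over the 10 libraries Klf4 was most like Bin1, Rassf4 and Cmtm3 (r = 0.998, 0.998 and 0.995), Gfi1 most like Adgrg3, Gpc1 and Wls (r = 0.997, 0.9968 and 0.9945), and Cebpe most like Irak3, Hnmt and Rnf144a (r = 0.998, 0.997 and 0.997). Cebpa was most like L3mbtl3, Fut7 and Edem2 (r = 0.984, 0.971 and 0.960), Cebpb most like Agps, Anxa3 and Rab27a (r = 0.995, 0.995 and 0.994), and Runx1 most like Mex3b, Zfp52 and Znrf2 (r = 0.992, 0.990 and 0.987).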

How the data were processed

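RNA was measured in 10 libraries of ribosome-depleted total RNA prepared with a strand-keeping kit (per the labels' protocols). RPKM values were deposited by the authors, with a separate table for every library. STAR 2.4.0, HTSeq, DiffBind and mm10 are named per the submitters' processing notes, without their roles. For the annotation, the strand setting and the RPKM library size, the sources used here state nothing. Whole reads were recovered from the deposited RPKM for 99.8% of 9183 genes averaging at least 1 RPKM (tolerance 0.02 reads). No replicate pair agreed within sampling noise.

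Deposited RPKM were divided by median-of-ratios size factors from 6490 genes. Tests used limma 3.58.1 (R 4.3.3) on log2(x + 0.5) with a variance trend and Benjamini-Hochberg adjustment over all genes with at least 1 RPKM in 2 fitted libraries. The 6 HSPC comparisons were fitted on 8 libraries and the neutrophil comparison on 10. Fold changes on this scale understate low genes. Tested on simulated data for DM against WT (9175 genes), all 100 genes changed 2-fold and all 100 changed 4-fold were recovered, with 21 other genes called. The changed genes lay above a WT level that Cebpb, Klf4 and Gfi1 do not reach, with as many raised as lowered. They were far fewer than the 3686 and 3814 genes called in DM against WT. Recovery at such low levels, or with so many changed genes, was not tested. P-values measure only the spread between the libraries of a group, which may be technical, and the comparisons with WT HSPC share those libraries.

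The members and gene lists were chosen with earlier results of these data known. The naming rule took the members, up to 4 genes a list and comparison by smallest adjusted p, the 3 genes most like each member, and markers that moved with a member. Alternatives changed the scaling, pseudocount, filter, block, variance model, weights and libraries. Gene positions are from GENCODE M21 and promoter windows from RefSeq.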

Additional observations from a re-analysis of the deposited data

Results flagged for a closer look

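For 4 of the 6 tested members the effect of Flt3-ITD differed between HSPC with and without Npm1c, by the interaction term in limma (n = 2 libraries per group). Among all genes tested, 37.2% were called above 0 and 35.7% below, so the members' share is no larger than the background, and the values describe these genes alone. The difference was 2.64 (log2, adjusted p = 8.18e-05) for Spi1, 2.19 (adjusted p = 3.77e-05) for Klf4, 0.589 (adjusted p = 0.0101) for Runx1 and -1.504 (adjusted p = 0.00998) for Cebpe. With quantile normalization the Runx1 value was 0.378 (adjusted p = 0.0522). The groups are too small to look for single outlying libraries within them.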

How the results depend on the processing

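Of the alternatives to the values of single members, 598 results kept direction and side of the threshold, 30 lost a call, 18 gained one and 16 changed sign, counting the group counts apart. Members that fell in Npm1c numbered 3, 5 on the deposited scale and 0 to 1 with any 1 library left out. Members that rose in Flt3-ITD numbered 0, and 0 to 5 with any 1 library left out. Members that fell in DM against WT numbered 1, but 2 on the deposited scale, with no filter, with only the groups compared and with library weights. Against Npm1c they numbered 1 and with no filter 2, and against Flt3-ITD 3, with only the groups compared 1, and 1 to 3 with any 1 library left out. In neutrophils 6 members rose, but 3 scaled to the listed genes, and 1 fell, but 2 on the deposited scale and 2 scaled to the listed genes. The shares of all genes tested moved as well. On the deposited scale 58.1% fell in Npm1c, 58.9% in DM against WT and 62.8% in neutrophils. Scaled to the listed genes, 22.7% rose and 70.4% fell in neutrophils. In DM against WT, 28% fell with no filter, 43.5% with only the groups compared and 43.8% with library weights.

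Signs changed as follows. In Flt3-ITD, Cebpe was at -0.0799 on the deposited scale and at -0.0127 scaled to the listed genes. With 1 library left out, the Flt3-ITD change ran from -0.0695 to 0.497 for Cebpa, from -0.372 to 0.516 for Cebpe and from -0.0599 to 0.553 for Spi1, the lowest without Flt3-ITD replicate 1 and the highest without replicate 2. The interaction of Cebpa ran from -0.0867 to 0.480. That of Cebpb was 0.0648 on the deposited scale, 0.0186 scaled to the listed genes and 0.0389 with a pseudocount of 0.1, and ran from -0.347 to 0.311 with 1 library left out. In neutrophils Cebpa was -0.36 scaled to the listed genes, and Runx1 was -0.44 on the deposited scale and -0.80 scaled to the listed genes. The cause was not tested, beyond fewer samples where a library was left out.

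The replicate numbers did not pair the samples (correlations of deviations from -0.104 to 0.0974). With the replicate number as a block, the counts were as before, with 3 members lower in Npm1c and 3 higher and 1 lower in DM against WT. Counts over all genes that moved by over 1.5 times were mostly those of the single mutants. In Flt3-ITD, 850 genes rose and 919 fell, against 37 to 1750 and 36 to 1459 with 1 library left out, 80 and 157 with only the groups compared, 215 and 270 with library weights, 180 and 3033 on the deposited scale and 392 and 2048 scaled to the listed genes. In Npm1c, 1765 rose and 1957 fell, against 609 to 1029 and 640 to 1260 with 1 library left out, 242 and 5638 on the deposited scale and 949 and 3023 scaled to the listed genes. In DM 3686 rose, and 2316 on the deposited scale. In neutrophils 4418 rose, and 2892 on the deposited scale and 2309 scaled to the listed genes. Depth limits Cebpe in DM, at 25 and 21 reads.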

Other observations

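Other lineage lists were counted in DM HSPC against WT, where 38.0% of all genes tested rose and 39.3% fell. All 8 megakaryocyte and platelet markers fell against WT, with a list median of -1.59, and their summed level was 56.1 and 56.2 RPKM against 138 to 279 in the 6 other HSPC libraries. Of 12 erythroid markers 7 fell and 5 rose (list median -0.52), and their sums, 1456 and 1433 RPKM, lay within the range of the other HSPC libraries (1388 to 2141). The stem and progenitor marker list gave 2 rises and 3 falls in 6 tested genes.

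The secondary granule genes differed between the Npm1c libraries, with sums of 96.4 and 434 RPKM, while Cebpe was at 1.64 and 2.44 RPKM in the same libraries.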
